A study of Mus musculus with 36 samples.

Results

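The genes described here are 10 mouse orthologs of human genes near risk variants for late-onset Alzheimer disease, namely Sorl1, Picalm, Bin1, Cd2ap, Clu, Abca7, Ptk2b, Inpp5d, Plcg2 and Abi3. They were taken by name, though with earlier results of these data known, as 10 of the 50559 gene rows of a table of read counts. All 10 passed the filter on low counts that kept 25382 of the 41519 genes with a count. Bulk RNA of both hippocampi was sequenced. The mice were females of 6 months, and the study addressed what early amyloid and tau pathology, alone or combined, does to the hippocampal transcriptome with and without spatial learning.

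The 8 groups held 3 APP/Tau trained, 3 APP trained, 4 Tau trained and 5 WT trained libraries, and 6 APP/Tau naive, 5 APP naive, 4 Tau naive and 6 WT naive libraries. APP mice were heterozygous for mutant human APP (Sw,Ind, line J9), Tau mice carried human tau P301S (line PS19), whose transgene is driven by the mouse prion protein promoter, and APP/Tau mice carried both. All lines had a C57BL/6 background, and every group, WT included, also carried Pvalb-IRES-Cre and RiboTag, which tag ribosomes in parvalbumin interneurons. The libraries hold the input fraction, lysate cleared of mitochondria by a spin and not enriched for tagged ribosomes, so they represent all hippocampal cells. Trained mice had 5 days of Morris water maze with 6 swims a day, a memory test 24 hours later and tissue collection 2 hours after that test; naive mice stayed in their home cages, and both were handled for 3 days beforehand. The labels number the samples within a group but do not tell whether every sample was a different mouse, and the p-values therefore rest on a spread that may be partly technical.

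Library totals ran from 69.2 to 124.8 M counts (median 85.4 M), and none of the 68 pairs of libraries within a group agreed within sampling noise (chi-square per degree of freedom 14.4 to 157). Prnp, the prion protein gene, stood at 1423 to 2142 CPM (counts scaled to a common library total) in 16 libraries labelled as Tau carriers and at 728 to 879 CPM in the 19 others. The library labelled Tau trained replicate 4 was at 846 CPM, which goes against its label. Many log2 changes of the 10 genes that rest on it are therefore also given without it. Usp16 followed the APP labels, at 12.9 to 14.9 CPM in the 17 libraries labelled as APP carriers and 24.8 to 30.3 CPM in 19 libraries without that label. No link of Usp16 to the APP transgene is given here, so it is a weaker check than Prnp. App and Mapt, at 1398 to 1902 and 506 to 595 CPM over all 36 libraries, did not follow the labels. WT trained replicate 4 stood apart by a score of 2.3 for 12 striatal markers, against at most 0.533 elsewhere (a score is the mean log2 CPM of a list minus its mean over libraries). Some values that rest on it are also given without it and the library labelled Tau trained replicate 4. WT trained replicate 5 stood apart by a score of -1.12 for 15 endothelial markers, against -0.23 or more elsewhere. It was not among the libraries left out together, and values without it are given only for Abca7 and for counts of called genes.

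Variants in or near these genes were tied to Alzheimer disease by human genetics, and their products fall into a few cellular tasks. SORL1, PICALM, BIN1 and CD2AP act on endocytosis and on the sorting of proteins such as the amyloid precursor protein between endosomes and the Golgi. Clusterin and ABCA7 handle lipids and lipoproteins, and PYK2, the product of Ptk2b, is a calcium-activated tyrosine kinase of forebrain neurons. SHIP1, PLCG2 and ABI3, the products of Inpp5d, Plcg2 and Abi3, are in the brain chiefly microglial and sit on phosphoinositide and actin pathways below receptors such as TREM2.

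Inpp5d and Plcg2 followed microglial markers from library to library, as described further on, so their promoters are shown for the motif of PU.1, a transcription factor that shapes microglial identity. Both sequences are from RefSeq on GRCm38.p6 and run from 250 bases before to 50 after the annotated start, at chr1:87620062-87620361 for Inpp5d and chr8:117498025-117498324 for Plcg2, both on the plus strand. Capitals mark GAGGAA, the short core of PU.1 sites, or its reverse complement TTCCTC.
Inpp5d: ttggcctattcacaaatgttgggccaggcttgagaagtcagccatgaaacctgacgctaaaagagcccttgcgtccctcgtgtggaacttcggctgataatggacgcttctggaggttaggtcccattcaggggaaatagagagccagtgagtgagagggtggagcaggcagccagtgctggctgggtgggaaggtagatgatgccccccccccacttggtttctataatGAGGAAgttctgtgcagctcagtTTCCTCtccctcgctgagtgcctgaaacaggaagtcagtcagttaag
Plcg2: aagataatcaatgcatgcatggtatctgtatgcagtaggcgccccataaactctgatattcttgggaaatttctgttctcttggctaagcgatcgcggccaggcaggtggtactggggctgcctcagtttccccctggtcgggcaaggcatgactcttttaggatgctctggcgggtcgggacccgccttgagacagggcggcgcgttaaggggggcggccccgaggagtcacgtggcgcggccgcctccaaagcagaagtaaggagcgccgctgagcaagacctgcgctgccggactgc
The Inpp5d window holds GAGGAA 2 times over both strands, 1 of them within the longer GAGGAAGT, and the Plcg2 window holds 0. Over both strands 28.3% of 32851 mouse promoters of this length hold GAGGAA and 3.2% hold GAGGAAGT. Of 7 promoter entries of the 10 genes, 2 hold GAGGAA, those of Inpp5d and Picalm, and 1 holds GAGGAAGT, that of Inpp5d. The Picalm window holds GAGGAA 2 times, yet Picalm was not shown to follow homeostatic microglia markers (r 0.20, adjusted permutation p = 0.55). The Plcg2 window is the richer in CG dinucleotides, with 21 against 6 for Inpp5d and a median of 7 over all promoters. Of the 10 genes, 6 had a promoter entry; Bin1, Clu, Ptk2b and Abi3 had none.

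All 10 genes were expressed in every library, over a wide range of levels. Divided by the merged exon length of the GENCODE vM21 annotation, Clu had the highest median, 241 CPM per kb, and was followed by Ptk2b with 110, Bin1 with 55.6 and Sorl1 with 36.5. Picalm stood at 9.45, Abi3 at 6.73 and Abca7 at 2.75 CPM per kb, and Cd2ap at 1.75, Inpp5d at 1.57 and Plcg2 at 1.41. The ranges over the 36 libraries did not overlap between neighbours in this order down to Abca7, whereas Abca7 and Cd2ap, Cd2ap and Inpp5d, and Inpp5d and Plcg2 did overlap. The span across libraries differed between genes. Picalm spanned 133 to 164 CPM, a ratio of 1.23 between the highest and lowest library, Bin1 198 to 254 CPM (1.28), the other 8 genes had ratios from 1.45 up, and Inpp5d had the widest span, 9.57 to 23.4 CPM (2.45).

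**Figure D1:**
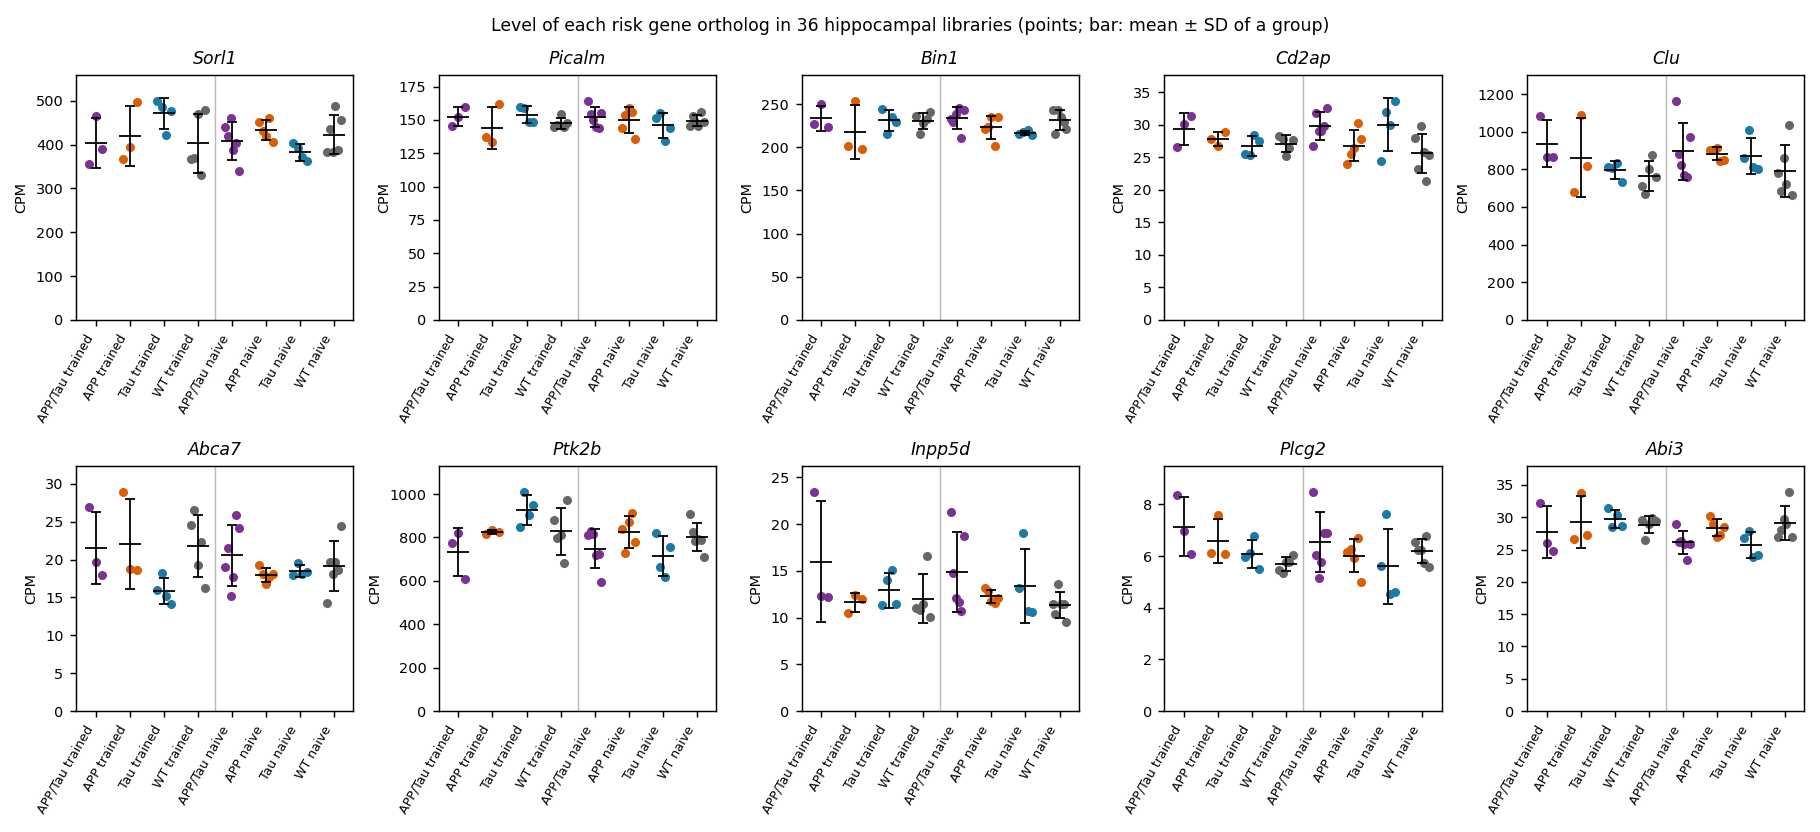
Level of each gene in CPM (vertical axis, from 0) in every library (points) by genotype and training, with the mean and SD of each group as bars. Picalm and Bin1 lie in narrow bands, whereas Inpp5d has single libraries at 21.3 CPM in APP/Tau naive and 23.4 CPM in APP/Tau trained, against 9.57 to 13.6 CPM in WT naive.

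None of the 10 genes passed in any of the 18 comparisons, by edgeR's quasi-likelihood test with Benjamini-Hochberg adjustment over all 25382 genes at 0.05. The comparisons themselves called few genes. In trained mice 0.0552% of all genes were called between APP/Tau and WT, 0.0276% between APP and WT and 0.303% between Tau and WT, and in naive mice 0.067% between APP/Tau and WT, 0.0355% between APP and WT and 0.0276% between Tau and WT. Averaged over the other transgene and over training, 0.835% were called between Tau carriers and non-carriers and 0.0985% between APP carriers and non-carriers. The test of whether both transgenes together differ from the sum of each called 0.0118% in trained and 0% in naive mice. Trained against naive called 0% in APP/Tau, 0% in APP, 0% in Tau and 0% in WT mice and 0% on average, and the 3 tests of whether a genotype's difference from WT depended on training called 0% for APP/Tau, 0% for APP and 0% for Tau. A count of 0 out of 10 is therefore near what any 10 genes would give, and it does not show that the genes were unaffected.

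Before adjustment, 23 of the 180 gene and comparison pairs had p under 0.05. The share of all genes at that level ran from 2.67% (dependence of APP on training) to 15.2% (Tau trained against WT trained). Counts of the 10 genes are therefore given with it. The highest was 4 of 10, against 9.04%, for the dependence of Tau on training. It was 3 of 10 for APP/Tau naive against WT naive (7.48%) and for Tau carriers (13.2%). It was 2 of 10 for Tau naive (9.31%), Tau trained (15.2%) and APP/Tau trained (10.2%), each against WT, and for APP carriers (9.95%). It was 1 of 10 for training on average (7.95%) and for the sum of both transgenes in trained mice (9.39%). In APP against WT mice 0 of the 10 genes reached that level in either training state, where 5.84% of all genes did in trained and 3.68% in naive mice. In Tau mice, trained against naive, 3 of 10 did, against 14.6% of all genes, and DESeq2, run as an alternative, called 423 genes there, against 0 with edgeR. For the other training comparisons the unadjusted counts over all genes were 780 in APP/Tau, 1329 in APP and 1486 in WT, with 0 called by DESeq2 in APP/Tau, 0 in APP and 1 in WT. On average over genotypes they were 2018 unadjusted and 7 by DESeq2. For the dependence on training they were 1052 for APP/Tau, 678 for APP and 2294 for Tau unadjusted, and 0, 1 and 15 by DESeq2, and for the sum of both transgenes in naive mice 1810 and 4.

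**Figure D2:**
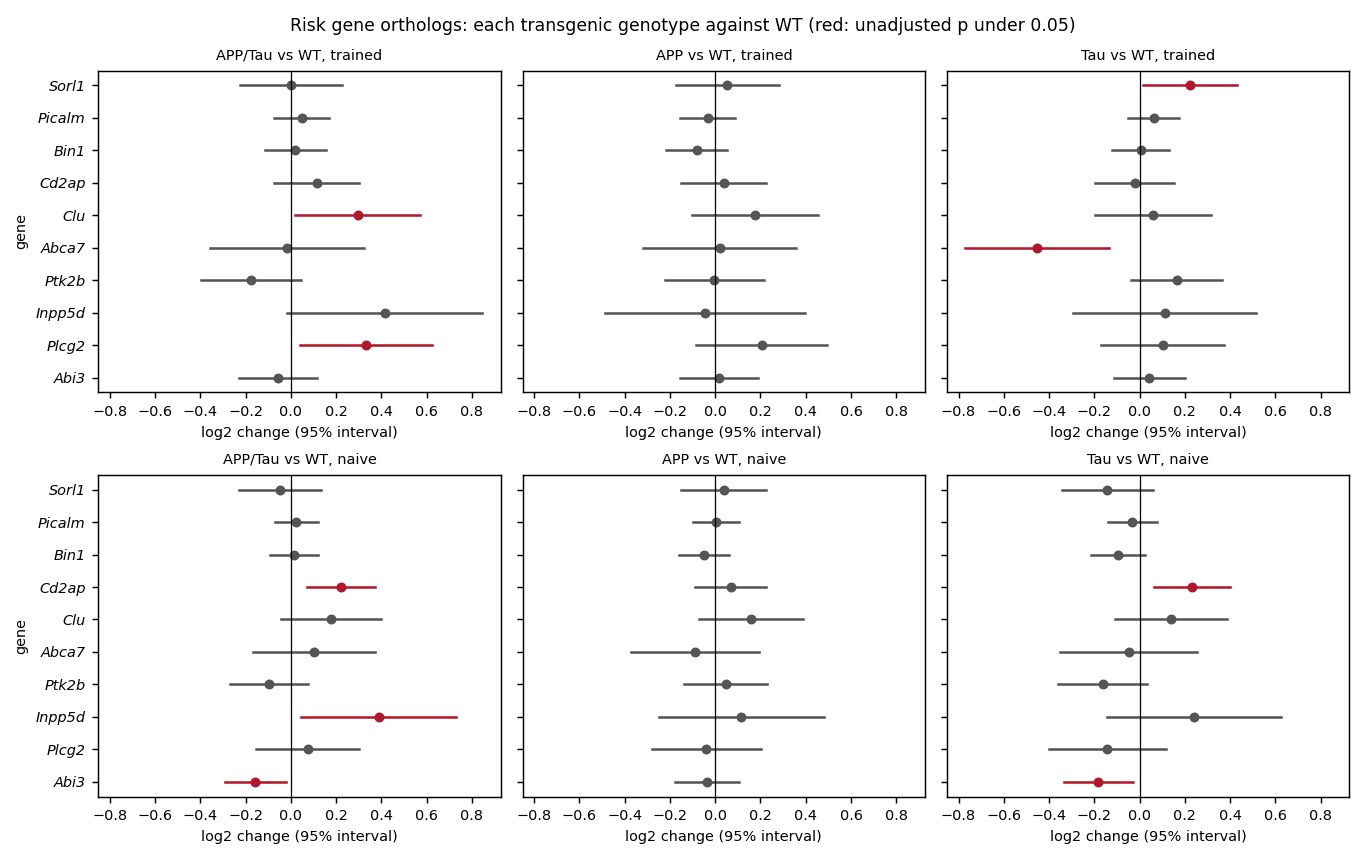
Log2 change of each gene (horizontal axis, edgeR, with its 95% interval) for each transgenic genotype against WT, in trained mice (upper row) and naive mice (lower row); red marks an unadjusted p under 0.05. Most intervals for Picalm and Bin1 lie within 0.2 of 0, Inpp5d has the widest intervals, and Abca7 in Tau trained mice is at -0.45.

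Among the genes of endocytosis and sorting, Sorl1 encodes the receptor that hands the amyloid precursor protein to retromer for return from endosomes to the Golgi. Sorl1 stood at 500, 487, 421 and 477 CPM in Tau trained libraries, against 404, 392, 373 and 362 CPM in Tau naive libraries. The 2 groups did not overlap, as was also so for 10.7% of all genes in this comparison. The trained libraries differed from the naive ones by a log2 change of 0.30 (SE 0.108, unadjusted p = 0.00881), which did not pass (edgeR adjusted p = 0.193), and it was 0.30 without the library labelled Tau trained replicate 4. In bulk RNA, more cells of a type and more RNA per cell cannot be told apart, for Sorl1 and for every gene that follows. Sorl1 was also higher in Tau trained than in the WT trained libraries, which had 367, 370, 471, 331 and 480.2 CPM, by a log2 change of 0.22 (SE 0.102, unadjusted p = 0.0359, edgeR adjusted p = 0.29), 0.22 without that library and 0.16 without it and WT trained replicate 4. These WT libraries spread widely and overlapped the Tau ones. In naive mice the Tau difference from WT had the opposite sign, -0.14 (95% interval -0.34 to 0.06), and the test of the difference between the training states gave 0.37 (SE 0.142, unadjusted p = 0.0149, edgeR adjusted p = 0.489), 0.36 without that library and 0.29 without both.

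Cd2ap encodes a scaffold that ties membrane proteins and endocytic adaptors to actin. It stood at 24.5, 32.04, 30.03 and 33.7 CPM in Tau naive libraries, and at 26.8 to 32.7 CPM (median 29.5) in APP/Tau naive libraries. In WT naive libraries it ran from 21.4 to 29.8 CPM with a median of 25.6, so both transgenic groups overlapped WT, with 1 Tau naive library low among its own group. On the log2 scale Cd2ap differed by 0.23 for Tau (SE 0.0816, unadjusted p = 0.00767, edgeR adjusted p = 0.412) and 0.22 for APP/Tau (SE 0.0733, unadjusted p = 0.00481, edgeR adjusted p = 0.611), and the 2 comparisons share the WT libraries. After training the levels lay closer together, as Tau trained libraries held 25.6, 25.4, 28.5 and 27.5 CPM and WT trained libraries 28.3, 27.9, 25.2, 26.5 and 27.7 CPM. The test of that dependence on training gave -0.25 (unadjusted p = 0.0398, edgeR adjusted p = 0.537), or -0.27 without the library labelled Tau trained replicate 4 and -0.28 without it and WT trained replicate 4. Averaged over all groups, Cd2ap was 0.11 higher in Tau carriers on the log2 scale (unadjusted p = 0.017, edgeR adjusted p = 0.244), or 0.11 without that library.

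Picalm, a clathrin adaptor that binds membrane phosphoinositides, and Bin1, an amphiphysin relative that bends membranes, had no comparison with an unadjusted p under 0.05. Picalm averaged 154 ± 6.46 CPM in Tau trained (SD, n = 4), 152.5 ± 6.99 in APP/Tau trained (n = 3), 144 ± 15.5 in APP trained (n = 3) and 147.5 ± 4.14 CPM in WT trained libraries (n = 5). In naive mice it averaged 152 ± 7.59 CPM in APP/Tau (n = 6), 149.7 ± 9.82 in APP (n = 5), 146 ± 9.41 in Tau (n = 4) and 149.5 ± 4.09 CPM in WT (n = 6). Its Tau carrier average was 0.03 on the log2 scale with a 95% interval of -0.02 to 0.09, or 0.04 without the library labelled Tau trained replicate 4, and that of APP carriers was 0.00 with an interval of -0.05 to 0.06. Bin1 stood at 0.02 for Tau carriers, also without that library, with an interval of -0.04 to 0.08, and its interval for APP carriers was -0.07 to 0.06. Their SDs within groups, 0.08 for Picalm and 0.09 for Bin1 on the log2 scale, were the smallest of the 10 genes.

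The wider endocytic machinery did not pass either. Of 38 other clathrin endocytosis genes and 22 retromer and sorting receptor genes, 0 rose and 0 fell in any comparison by edgeR. In Tau mice, trained against naive, 29 of the 38 and 17 of the 22 lay above 0, with median log2 changes of 0.10 and 0.08 against -0.01 over all genes. Their summed levels in those mice were 8005 to 8504 CPM in Tau trained and 7364 to 7965 CPM in Tau naive libraries for the clathrin list, and 2500 to 2600 and 2263 to 2426 CPM for the retromer list.

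Clu, which encodes clusterin, a secreted lipoprotein-binding chaperone made mainly by astrocytes in the brain, was the most abundant of the 10. It stood at 1081, 866 and 864 CPM in APP/Tau trained libraries, against 714, 669.7, 803, 876 and 757 CPM in WT trained libraries. The groups overlapped through a single WT library, replicate 4. The log2 change was 0.30 (SE 0.136, unadjusted p = 0.0375, edgeR adjusted p = 0.46), and it was 0.19 without APP/Tau trained replicate 1 and 0.34 without both doubted libraries, the one labelled Tau trained replicate 4 and WT trained replicate 4. Clu was 0.15 higher on average in APP carriers (SE 0.0646, unadjusted p = 0.0252, edgeR adjusted p = 0.412), 0.15 without both doubted libraries and 0.10 without APP trained replicate 2, which at 1089 CPM stood well above the 680.1 and 817 CPM of the other APP trained libraries.

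Abca7, a transporter that moves phospholipids across membranes and is active in phagocytosis, stood at 15.96, 18.2, 15.2 and 14.2 CPM in Tau trained libraries. In WT trained libraries it was at 24.6, 26.5, 19.2, 22.3 and 16.2 CPM, so the Tau group lay low and only WT replicate 5 lay among it. The log2 change was -0.45 (SE 0.156, unadjusted p = 0.0066, edgeR adjusted p = 0.155), and it was -0.40 without the library labelled Tau trained replicate 4, -0.39 without both doubted libraries and -0.54 without WT trained replicate 5. In naive mice Abca7 was at 17.96, 19.6, 18.1 and 18.4 CPM in Tau libraries and 14.3 to 24.5 CPM (median 19.1) in WT libraries, a log2 change of -0.05 (95% interval -0.35 to 0.25). The dependence on training was -0.40 (unadjusted p = 0.0683, edgeR adjusted p = 0.575), or -0.36 without the library labelled Tau trained replicate 4, so the 2 training states were not shown to differ.

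Among 24 other genes of brain lipoprotein and lipid transport, Abca2, an endolysosomal transporter of the same family, rose by 0.14 on the log2 scale in Tau carriers on average (SE 0.0337, edgeR adjusted p = 0.0402). It was the only called gene of this list in the 18 comparisons. In APP/Tau trained against WT trained mice 21 of the 24 lay above 0, with a median log2 change of 0.15 against -0.01 over all genes.

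Ptk2b encodes PYK2, a kinase that responds to calcium and acts with SRC-family kinases at synapses. It stood at 849, 1009, 902 and 951 CPM in Tau trained libraries, against 822, 665, 617 and 754 CPM in Tau naive libraries. All 4 trained libraries lay above all 4 naive ones, which was so of 1 group or the other for 10.7% of all genes. The log2 change was 0.38 (SE 0.105, 95% interval 0.16 to 0.59, unadjusted p = 0.00104), which did not pass with edgeR (adjusted p = 0.107) and was 0.37 without the library labelled Tau trained replicate 4. Ptk2b passed with DESeq2, at 0.37 (adjusted p = 0.0406), where 2.12% of 19965 genes with an adjusted p were called. It passed also with edgeR without Tau naive replicate 1, the highest naive library, at 0.45 (adjusted p = 0.0442), where 0.758% of 25333 genes were called. Under each of these rules it was the only one of the 10 genes.

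In the other genotypes the intervals for Ptk2b included 0. Trained against naive gave -0.03 in APP/Tau (95% interval -0.24 to 0.18), -0.00 in APP (-0.22 to 0.22) and 0.05 in WT mice (-0.13 to 0.23). The difference between the Tau and WT training effects was 0.33 (SE 0.138, unadjusted p = 0.0233, edgeR adjusted p = 0.51), 0.31 without the library labelled Tau trained replicate 4 and 0.25 with both doubted libraries left out, and so was not shown. WT trained libraries held 878, 796, 813, 682 and 971 CPM, and WT naive libraries 708 to 906 CPM with a median of 790.5, so these groups overlapped. In trained mice Ptk2b in APP/Tau lay 0.33 below the sum of the APP and Tau effects on the log2 scale, a value of -0.33 (unadjusted p = 0.0394, edgeR adjusted p = 0.524), -0.26 without both doubted libraries and -0.22 without APP/Tau trained replicate 3.

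**Figure D3:**
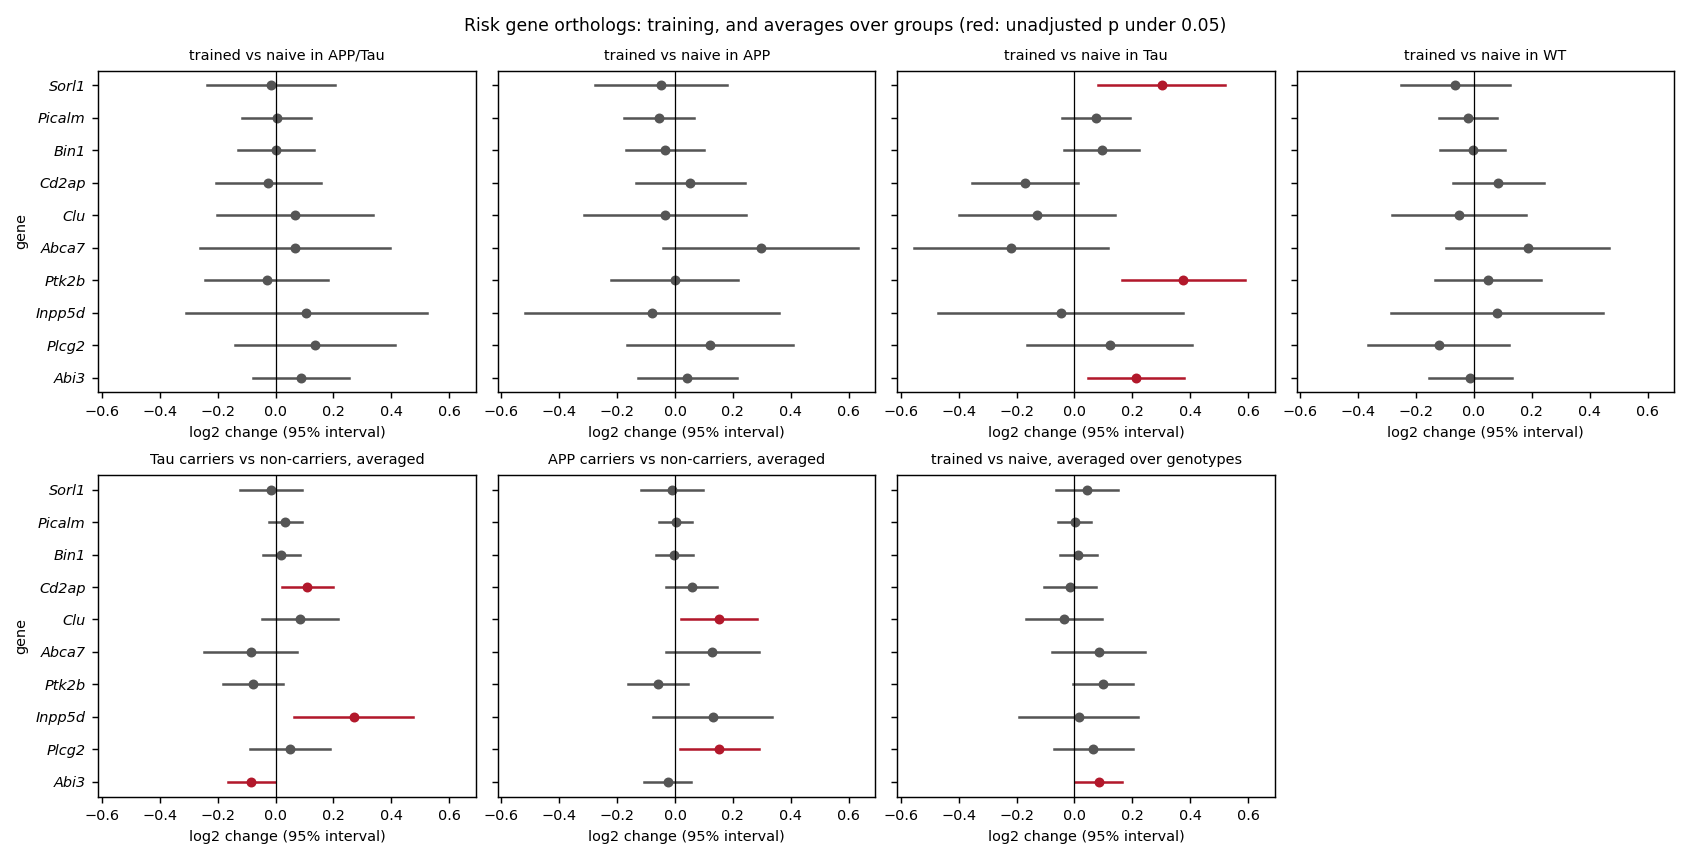
Log2 change of each gene (horizontal axis, edgeR, with its 95% interval) for trained against naive mice of each genotype (upper row) and for Tau carriers, APP carriers and training averaged over groups (lower row); red marks an unadjusted p under 0.05. In Tau mice Ptk2b is at 0.38, Sorl1 at 0.30 and Abi3 at 0.21, and in WT mice the same genes are at 0.05, -0.06 and -0.01.

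Marker levels of other cell types are given beside these values. All 9 dentate granule cell markers lay above 0 in Tau trained against Tau naive mice, with a median log2 change of 0.43, though 0 were called by edgeR. Their summed level was 471 to 598 CPM in Tau trained and 318 to 434 CPM in Tau naive libraries, with none of the 9 at 0 in any library. Of 8 CA1 pyramidal markers 7 lay above 0 (median 0.15), with sums of 745 to 831 CPM in Tau trained and 676 to 736 CPM in Tau naive libraries. All 18 choroid plexus markers lay below 0 (median -3.05), with sums of 109 to 648 CPM in Tau trained and 1502 to 4113 CPM in Tau naive libraries. Within groups, after each group's mean was subtracted, Ptk2b followed the dentate score over the 36 libraries with a Pearson r of 0.69 and a Spearman rho of 0.64 (permutation p = 0.00012 and 0.00042 within groups, adjusted over 95 relations 0.0011 and 0.0033), and r was 0.62 without the 2 libraries farthest from the median score. For Sorl1 the r was 0.53 (permutation p = 0.0047, adjusted 0.025), the rho 0.47 (permutation p = 0.013, adjusted 0.064, not passing), and the r without the 2 farthest libraries 0.47. The part of these markers in the Ptk2b and Sorl1 differences was not tested.

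Of 24 other genes of PYK2 and SRC-family signalling, 0 passed in any comparison with edgeR. In Tau mice, trained against naive, 20 of the 24 lay above 0 with a median log2 change of 0.10, and in naive Tau against naive WT mice 21 of 24 lay below 0 with a median of -0.07, the Tau naive libraries being common to both.

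Inpp5d encodes SHIP1, the phosphatase that removes a phosphate from PIP3 and dampens signals of immune receptors. It stood at 21.3, 14.8, 12.1, 11.7, 10.7 and 18.8 CPM in the APP/Tau naive libraries and at 13.2, 19.01, 10.7 and 10.7 CPM in the Tau naive libraries. In WT naive libraries it ran from 9.57 to 13.6 CPM with a median of 11.47. Single libraries, APP/Tau naive replicates 1 and 6 and Tau naive replicate 2, stood high while the rest of their groups lay within or next to the WT range. Inpp5d differed from WT by 0.39 in APP/Tau naive mice on the log2 scale (SE 0.169, unadjusted p = 0.0282, edgeR adjusted p = 0.645), and 0.26 without replicate 1. For Tau naive it was 0.24 (95% interval -0.15 to 0.63), and 0.02 without replicate 2.

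After training the pattern for Inpp5d was of the same kind. APP/Tau trained libraries stood at 23.4, 12.3 and 12.2 CPM, against 11.1, 10.8, 11.49, 16.6 and 10.1 CPM in WT trained libraries, and a single library was high in each group. APP/Tau differed from WT by 0.41 (SE 0.212, unadjusted p = 0.06, edgeR adjusted p = 0.512), and 0.04 without APP/Tau trained replicate 1. On average Inpp5d was 0.27 higher in Tau carriers (SE 0.101, unadjusted p = 0.0116, edgeR adjusted p = 0.209), 0.285 without the library labelled Tau trained replicate 4, 0.32 without both doubted libraries and 0.18 without APP/Tau trained replicate 1.

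Plcg2 encodes the phospholipase that relays TREM2 and Fc receptor signals below the kinase SYK. Plcg2 stood at 8.36, 6.98 and 6.08 CPM in APP/Tau trained libraries and at 6.12, 7.58 and 6.07 CPM in APP trained libraries, against 5.47, 5.34, 5.77, 5.77 and 6.03 CPM in WT trained libraries. Neither transgenic group overlapped WT, as was also so for 6.3% of all genes in the APP/Tau and 2.54% in the APP comparison. Plcg2 differed by 0.33 for APP/Tau on the log2 scale (SE 0.143, unadjusted p = 0.0264, edgeR adjusted p = 0.419), 0.33 without both doubted libraries and 0.21 without APP/Tau trained replicate 1. For APP it was 0.21 (95% interval -0.08 to 0.49) and 0.10 without APP trained replicate 2, and the 2 comparisons share the WT trained libraries. In naive mice Plcg2 was at 5.16 to 8.47 CPM (median 6.46) in APP/Tau and at 5.59 to 6.78 CPM (median 6.23) in WT libraries. The APP/Tau range held the WT range and went past it on both sides. Averaged over groups, it was 0.15 higher in APP carriers (SE 0.0673, unadjusted p = 0.0295, edgeR adjusted p = 0.43), or 0.14 without both doubted libraries. Counts of Plcg2 were the lowest of the 10, from 371 to 750 per library. Its SD within groups, 0.195 on the log2 scale, was nonetheless the same as that of Clu, the most abundant of the 10.

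Abi3 encodes an ABI-family protein of actin-regulating complexes. Its value is uncertain: in GENCODE vM21 its exons overlap those of genes on the opposite strand, Zfp652 over 70.1% of the Abi3 exon length, Phospho1 over 41.1% and Gngt2 over 5.63%, and the strand setting of the counting is not given in the sources used here. Abi3 stood at 31.5, 28.4, 30.4 and 28.6 CPM in Tau trained libraries, against 26.8, 27.9, 23.8 and 24.1 CPM in Tau naive libraries, with no overlap, as for 10.7% of all genes. The log2 change was 0.21 (SE 0.0818, unadjusted p = 0.0137, edgeR adjusted p = 0.211), and 0.23 without the library labelled Tau trained replicate 4. Abi3 was also lower in Tau naive than in WT naive mice, by a log2 change of -0.18 (unadjusted p = 0.021, edgeR adjusted p = 0.485), and in APP/Tau naive mice, by -0.16 (unadjusted p = 0.0238, edgeR adjusted p = 0.634). APP/Tau naive libraries held 23.4 to 28.98 CPM (median 26) and WT naive libraries 26.98 to 33.9 CPM (median 28.5), so the groups overlapped.

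Phospho1, a phosphatase gene that shares 84.2% of its exon length with Abi3, had values of the same sign as Abi3 and farther from 0. Its log2 change was -0.26 in Tau naive against WT naive mice (edgeR adjusted p = 0.279), -0.26 in APP/Tau naive against WT naive mice (edgeR adjusted p = 0.101) and 0.27 in Tau trained against Tau naive mice (edgeR adjusted p = 0.0986). On average Phospho1 fell by 0.15 in Tau carriers (edgeR adjusted p = 0.0285), where Abi3 was at -0.08 (edgeR adjusted p = 0.362). In the same comparisons and order, Zfp652 was at 0.07, 0.004, 0.04 and 0.06. Gngt2 was at 0.32, 0.48, -0.10 and 0.34, each of the sign opposite to Abi3. Neither of these genes passed (edgeR adjusted p = 0.242 or more). Within groups Abi3 and Phospho1 were correlated with an r of 0.82 over the 36 libraries, Abi3 and Gngt2 with 0.65 and Abi3 and Zfp652 with -0.52, as a description. Reads of these genes cannot be told apart here. The dependence of Abi3 on training in Tau mice was 0.23 (unadjusted p = 0.044, edgeR adjusted p = 0.544), 0.24 without the library labelled Tau trained replicate 4 and 0.25 with both doubted libraries left out. Its average in Tau carriers was -0.07 without both and -0.05 without APP trained replicate 2. Its training average was 0.08 (unadjusted p = 0.0448, edgeR adjusted p = 0.616), 0.09 without both doubted libraries and 0.05 without APP/Tau trained replicate 1. The 10 other WAVE complex and ABI partner genes gave 0 calls in any comparison. Against WT trained mice, 2 of the 10 lay above 0 in APP/Tau trained (median log2 change -0.08), 3 in APP trained (-0.02) and 10 in Tau trained mice (0.10), and against WT naive mice 1 did in APP/Tau naive (-0.04), 10 in APP naive (0.04) and 3 in Tau naive mice (-0.06).

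The libraries with high Inpp5d were those with high microglial markers. The homeostatic microglia score (20 markers such as P2ry12 and Tmem119) was 0.67 and 0.57 in APP/Tau naive replicates 1 and 6, 0.68 in Tau naive replicate 2 and 0.67 in APP/Tau trained replicate 1, and at most 0.32 in the other 32 libraries. The score of 32 disease-associated microglia genes was 1.57, 1.58, 1.18 and 1.56 in the same libraries. Within groups Inpp5d followed the homeostatic score with an r of 0.91 and a rho of 0.82 (permutation p = 1e-05, the smallest 100000 permutations can give, and 2e-05, adjusted 0.00016 and 0.00038). That r was 0.87 without the 2 farthest libraries and 0.71 over the 32 libraries with a score under 0.5. Plcg2 followed it with an r of 0.76 and a rho of 0.70 (permutation p = 0.00013 for both, adjusted 0.0011 and 0.0015), and Abi3 with an r of 0.72 and a rho of 0.66 (permutation p = 3e-05 and 0.00015, adjusted 0.00036 and 0.0016). Without the 2 farthest libraries these were 0.67 and 0.65, and over the 32 libraries with a score under 0.5 they were 0.43 for Plcg2 and 0.65 for Abi3.

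**Figure D4:**
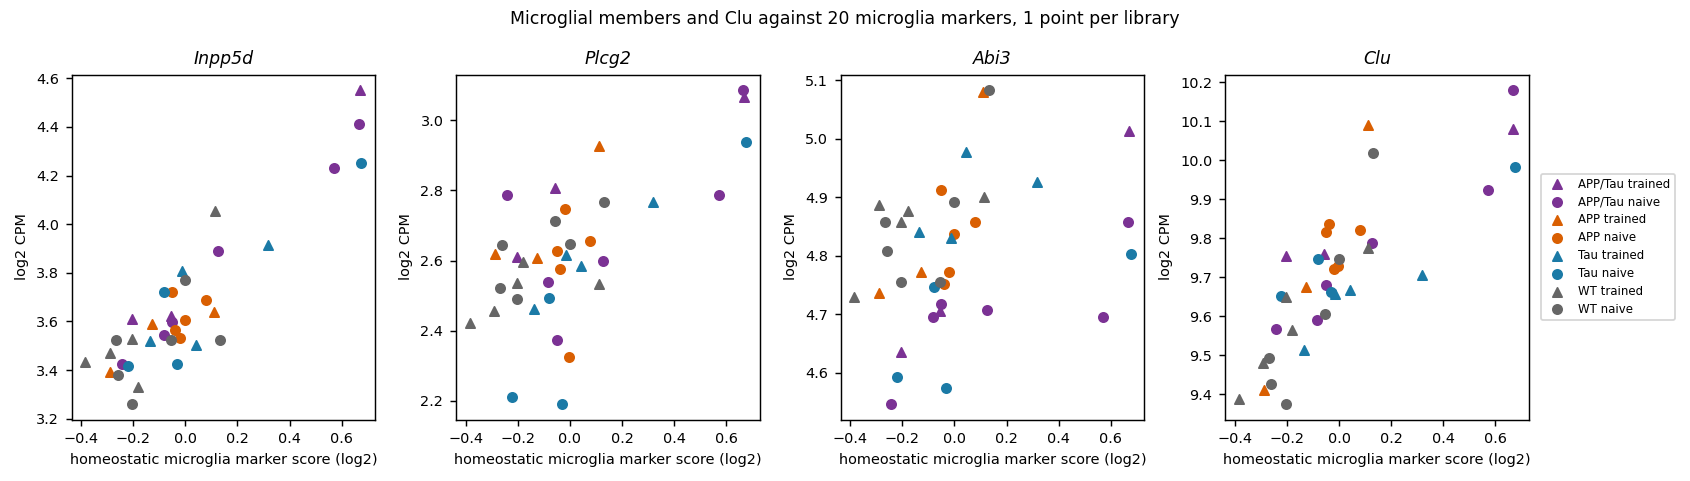
Log2 CPM (vertical axis) of Inpp5d, Plcg2, Abi3 and Clu against the homeostatic microglia score of the same library (horizontal axis, log2), with 1 point per library coloured by genotype and triangles for trained mice. The 4 libraries with scores of 0.57 to 0.68, all labelled as Tau carriers, are also the 4 highest for Inpp5d, at 18.8 to 23.4 CPM.

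Set against the microglia score of the same library, the Inpp5d means of the groups lay close together. Its log2 CPM minus the score averaged 3.69 ± 0.06 in APP/Tau naive (SD, n = 6) and 3.61 ± 0.16 in WT naive libraries (n = 6). In trained mice it averaged 3.79 ± 0.10 in APP/Tau (n = 3) and 3.75 ± 0.16 in WT libraries (n = 5). Plcg2 averaged 2.53 ± 0.28 in APP/Tau naive (n = 6), 2.37 ± 0.16 in Tau naive (n = 4) and 2.74 ± 0.10 in WT naive libraries (n = 6), and Abi3 4.54 ± 0.31, 4.59 ± 0.33 and 4.97 ± 0.12 in the same groups. In trained mice Plcg2 averaged 2.69 ± 0.26 in APP/Tau (n = 3), 2.82 ± 0.09 in APP (n = 3) and 2.70 ± 0.16 in WT libraries (n = 5), and Abi3 4.65 ± 0.27, 4.97 ± 0.06 and 5.04 ± 0.15 in the same groups. These values are a description with no test.

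Genes of the pathway that Inpp5d and Plcg2 belong to lay above 0 as a list. Of 30 microglial genes of TREM2, SYK and PLCG2 signalling, 28 lay above 0 in APP/Tau trained against WT trained mice, with a median log2 change of 0.61 against -0.01 over all genes, 28 in APP/Tau naive against WT naive mice with a median of 0.45 and 28 in Tau naive against WT naive mice with a median of 0.30. In APP naive against WT naive mice 13 of 30 did, with a median of -0.01. None of the 30 was called by edgeR in any comparison. A few libraries stood high in the score of this list. It was 1.14, -0.06 and -0.195 in APP/Tau trained libraries, against -0.44 to 0.09 in WT trained ones. In APP/Tau naive libraries it was 1.04 and 1.03 in replicates 1 and 6 and -0.204 to 0.27 in the rest. In Tau naive libraries it was 0.904 in replicate 2 and -0.25 to -0.03 in the rest, against -0.28 to 0.05 in WT naive ones. Summed over the list, the level was 196.6 to 415 CPM (median 228) in APP/Tau naive and 182 to 220.1 CPM (median 197) in WT naive libraries, and 195 to 432 CPM (median 215) in APP/Tau trained and 174 to 250 CPM (median 189) in WT trained libraries. Of the marker lists, Sall1, a transcription factor of resident microglia, rose by 0.23 on average in Tau carriers (edgeR adjusted p = 0.0082). In the same average 5 of 32 disease-associated genes rose, as did 0.725% of all genes. Among them were Cst7 by 4.08 (edgeR adjusted p = 0.0158), Ccl4 by 2.50, Clec7a by 3.96 and Itgax by 3.56. Only some Tau carriers stood high. The disease-associated score was 0.9 in Tau trained replicate 3 and 1.18 to 1.58 in the 4 libraries with high homeostatic scores. It was -0.38 to 0.3 in the other Tau carriers, and at most 0.25 in non-carriers. The part of microglial content in the Inpp5d, Plcg2 and Abi3 values was not tested.

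Clu ran with astrocyte as well as microglial markers, as did the 3 microglial genes. Within groups the r with the astrocyte score was 0.81 for Inpp5d, 0.70 for Abi3 and 0.63 for Plcg2 (adjusted permutation p = 0.00016, 0.00042 and 0.0078, rho 0.77, 0.65 and 0.54), and 0.74, 0.65 and 0.46 without the 2 farthest libraries. For Clu the r was 0.86 with the astrocyte score and 0.83 with the homeostatic microglia score (permutation p = 1e-05 for both, the smallest possible, adjusted 0.00016, rho 0.87 for both), and 0.84 and 0.83 without the 2 farthest libraries. Over the 32 libraries with a microglia score under 0.5 the second was 0.82. The astrocyte and microglia scores themselves were high in the same libraries, and astrocyte marker sums were 5177 to 7865 CPM in APP/Tau naive and 4976 to 6325 CPM in WT naive libraries. Picalm followed the oligodendrocyte score (r 0.54, rho 0.54, permutation p = 0.0081 and 0.0051, adjusted 0.038 and 0.028), and r was 0.54 without the 2 farthest libraries. Clu followed it as well (r 0.54, rho 0.53, permutation p = 0.0037 and 0.003, adjusted 0.021 and 0.019), with an r of 0.52 without the 2 farthest libraries. Of the 18 oligodendrocyte markers 13 rose on average in Tau carriers, Mbp by 0.36 (edgeR adjusted p = 0.0114), Gjb1 by 0.42, Aspa by 0.43 and Mag by 0.39 on the log2 scale, whereas Picalm was at 0.03. Cd2ap ran against the CA1 score (r -0.44, rho -0.54, permutation p = 0.0024 and 9e-04, adjusted 0.014 and 0.0066), with an r of -0.52 without the 2 farthest libraries. Bin1 and Abca7 passed with none of the 5 cell type scores tested.

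**Figure D5:**
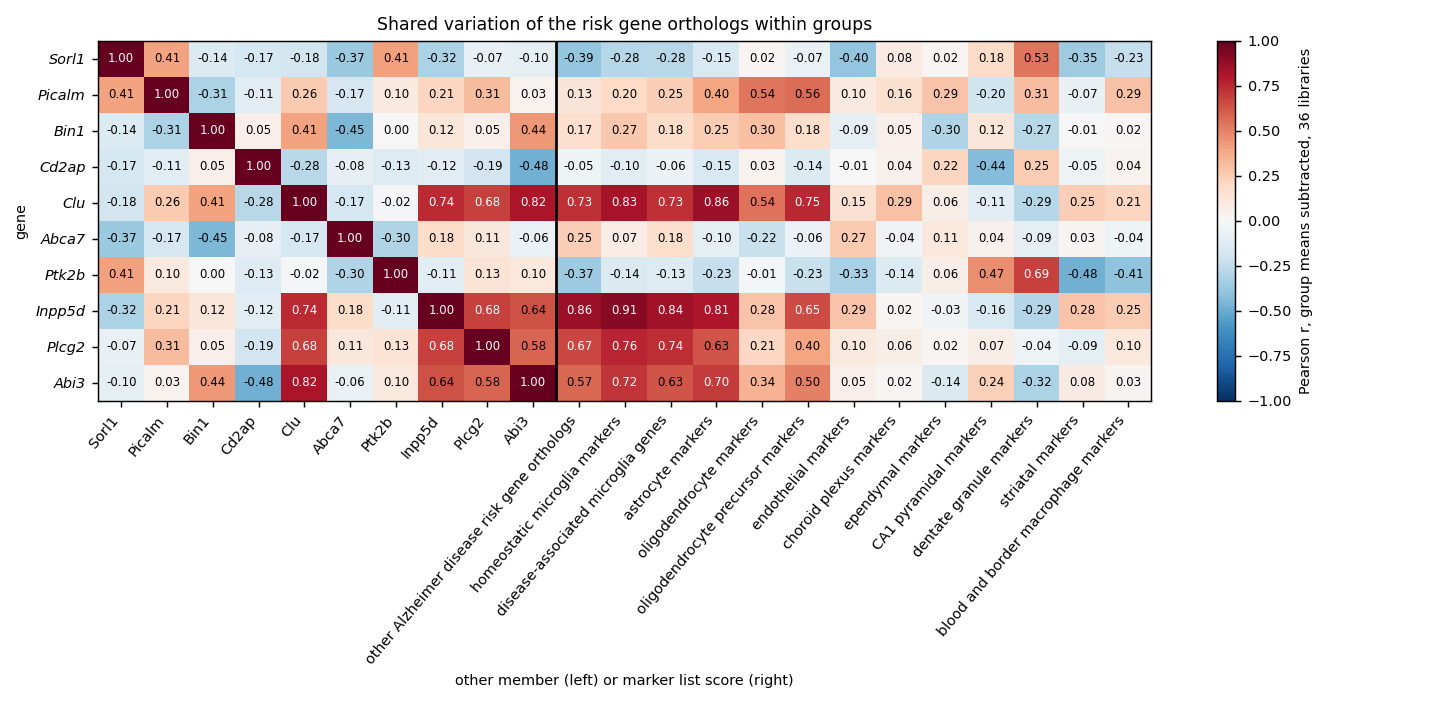
Pearson r across the 36 libraries after each group's mean was subtracted, between pairs of the 10 genes (left of the line) and between each gene and the score of a gene list (right of the line), with colour and printed value giving r. Clu, Inpp5d, Plcg2 and Abi3 share a block of r from 0.58 to 0.82, and Ptk2b and Sorl1 stand apart with r of 0.69 and 0.53 for the dentate list.

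Of the 45 pairs among the 10 genes, 7 passed after adjustment over the 95 relations. How many pairs of other genes would pass was not counted, nor how many other genes would pass with the cell type scores. The relations are therefore not read as particular to these genes. Of these, 6 joined Clu, Inpp5d, Plcg2 and Abi3 in every combination, from an r of 0.58 for Plcg2 and Abi3 (permutation p = 0.0015, adjusted 0.0093, rho 0.53, 0.54 without the 2 farthest libraries) to 0.82 for Clu and Abi3 (permutation p = 1e-05, adjusted 0.00016, rho 0.74, 0.78 without them). Inpp5d and Plcg2, whose promoters are shown above, had an r of 0.68 (permutation p = 0.00055, adjusted 0.004, rho 0.61, 0.55 without them). The last pair was Cd2ap and Abi3, with an r of -0.48 (permutation p = 0.0077, adjusted 0.038) that did not pass by rank (rho -0.41, adjusted 0.11) and was -0.34 without the 2 farthest libraries.

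The genes whose values ran most like each of the 10 were listed as a description. Among 13757 named genes, with r of log2 CPM after group means were subtracted as the measure over 36 libraries, Inpp5d was closest to Csf1r (0.94), Slco2b1 (0.93) and C1qb (0.92), and Plcg2 to Cyth4 (0.81), Lag3 (0.81) and Il21r (0.80). Clu was closest to Cst3, Apoe and Prdx6 (0.92 each), and Abi3 to Prdx6 (0.85), Phospho1 (0.82) and Clu (0.82). Ptk2b had Lrrn2 (0.90), Pgbd5 (0.89) and Pip5k1a (0.88), and Sorl1 had Reps2 (0.88), Frrs1l (0.87) and Epha6 (0.86). Abca7 had Irf3 (0.89), Pnpla6 (0.88) and Kcp (0.88), and Picalm had Qk, Ptpn11 and Spg20 (0.80, 0.80 and 0.79). The weakest best matches were those of Bin1, with Denr, Rpl11 and Rpl37a (0.76 each), and of Cd2ap, with Zfp932, Fam135a and Ap4e1 (0.73, 0.73 and 0.72).

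The same was asked of 55 orthologs of other genes near Alzheimer disease risk variants. In the 18 comparisons 2 of them were called, both in averages over groups. Jazf1, a zinc finger gene, fell by 0.14 in Tau carriers (SE 0.0299, edgeR adjusted p = 0.0225). Adamts1, a secreted metalloprotease gene, fell by 0.35 in APP carriers (SE 0.0708, edgeR adjusted p = 0.0313). An effect of a transgene and another genetic difference of the line that carries it cannot be told apart here, and the cause of either fall was not tested. In APP/Tau trained against WT trained mice 41 of the 55 lay above 0 with a median log2 change of 0.08, against -0.01 over all genes, and in APP/Tau naive against WT naive mice 34 of 55 did with a median of 0.03. The medians of the 10 genes in the same comparisons were 0.03 and 0.05, and over the 18 comparisons the median of the 10 lay between -0.07, in Tau naive against WT naive mice, and 0.10, for the dependence of the Tau difference on training.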

How the data were processed

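Input-fraction RNA of the hippocampus was sequenced as poly(A) NEBNext libraries with paired reads of 150 bases, per the labels' protocols. The authors trimmed reads with Trimmomatic 0.39 and used mm39, per the submitters' processing notes; no aligner, counter or annotation is stated in the labels. The deposited table holds unnormalized counts of reads for each gene in 36 libraries, and all of its sample columns were used. CPM here are counts over library totals scaled by TMM. Genes were filtered with filterByExpr (minimum count 10, minimum total 15), and 8 group means were fitted to all libraries with edgeR 4.0.16 (quasi-likelihood, robust, R 4.3.3, limma 3.58.1), which shares 1 estimate of spread. P-values were adjusted by Benjamini-Hochberg over all 25382 genes in each of 18 contrasts, at 0.05. Alternatives were DESeq2 1.42.0 and its size factors, no filter, a replicate block and leaving out each library. The fit was tested on simulated data. Genes named from a list were up to 4 called ones per contrast with the smallest p; other names were chosen after their values were seen. The members and lists were chosen with earlier results of these data known, and lists share some genes. Relations used log2 CPM (prior count 2) with group means subtracted and permuted within groups. Exon overlaps and lengths came from GENCODE vM21 on GRCm38, a build other than mm39, so no gene coordinates are given. Same-numbered libraries of different groups did not deviate together (mean r -0.02 over 106 pairs), so numbers were not taken as pairs.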

Additional observations from a re-analysis of the deposited data

Results flagged for a closer look

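A single far library was looked for in 60 sets, each of 1 gene in 1 group of 4 to 6 libraries. In these sets, which share libraries, 2 values stood apart, and chance gives about 1 in 20, or 3. APP/Tau trained and APP trained, with 3 libraries each, were not screened. Abi3 was at 26.51 CPM in WT trained replicate 2, below the 28.97 to 29.84 CPM of the other libraries of its group (n = 5). Inpp5d was at 16.59 CPM in WT trained replicate 4, above the 10.1 to 11.5 CPM of the others (n = 5). WT trained replicate 4 is also the library with high striatal markers, and its homeostatic microglia score was 0.11.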

How the results depend on the processing

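The count of members called was 0 in 18 comparisons with edgeR, and it stayed 0 under the other size factors, without the filter on low counts, with a replicate block and without both doubted libraries (the last chosen after seeing the data). The exception was trained against naive in Tau mice. There DESeq2 called 1 member, Ptk2b, and leaving out 1 library gave from 0 to 1 members, the 1 being Ptk2b without Tau naive replicate 1. Of the 180 pairs of gene and comparison, none of the 23 with an unadjusted p under 0.05 changed sign in 41 settings, and 72 of the other 157 changed sign in at least 1. Counts over all genes moved by more than 1.5 times. DESeq2 called 553 against 77 for Tau and 99 against 14 for APP/Tau, each trained against WT trained, 423 against 0 for trained against naive in Tau, 565 against 212 for Tau carriers, 78 against 25 for APP carriers, 5 against 3 for the sum of both transgenes in trained mice, 15 against 0 for the dependence of Tau on training and 7 against 0 for training on average. Without the filter Tau carriers gave 124. Without both doubted libraries, Tau trained against WT trained gave 19 and training in WT mice 1. With the replicate block, Tau naive against WT naive gave 4 against 7, training in Tau mice 1 and its dependence 6; the block left the count of members at 0. Leaving out 1 library gave 3 (without Tau trained replicate 1) to 360 (without WT trained replicate 5) genes for Tau trained against WT trained, 65 (without APP trained replicate 1) to 391 (without APP trained replicate 3) for Tau carriers and 0 to 192 (without Tau naive replicate 1) for training in Tau mice. The cause of these shifts was not tested. Group sizes of 3 to 6 libraries limit these values. The part of depth was not tested, and Plcg2, the gene with fewest reads, had 371 to 750 counts in a library.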
